A study of Homo sapiens with 4 samples.

Results

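HPGD, the dehydrogenase that inactivates prostaglandins, was measured with 9 other genes of prostaglandin and leukotriene biology in HAP1 cells, an established human line, near-haploid, that descends from a chronic myeloid leukaemia line. The 10 genes are those of the 785 gene probes named HPGD or with a symbol that starts with PTGS, PTGES, PTGER, ALOX, LTA4H or LTC4S: HPGD, PTGS2, PTGER2, PTGER4, ALOX5, ALOX5AP, ALOX12, ALOX15, LTA4H and LTC4S. HPGD was chosen because its values in this comparison were known to be low in the knockout, so its difference is described without a test. The 9 others were chosen by name.

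RNA was counted on a NanoString panel, on which coloured barcodes attached to RNA molecules are counted one by one and nothing is amplified. The wild-type group held lines 1 and 7, and the MATR3 knockout group held clones 1 and 5, in which the gene for matrin 3, a nuclear protein that binds RNA and DNA, was knocked out. All 4 came from 1 supplier, grew in the same serum-containing medium and received no other treatment that the labels name. Each line stands for 1 clone or supplier batch, so the spread between the lines of a group is a spread between clones or batches. A p-value here sets a difference against such spread, drawn partly from other genes of similar level, and measures no more than that. MATR3 was not analysed here, so the counts do not check the genotype labels.

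Eicosanoids are signalling lipids made from arachidonic acid. In the prostaglandin branch, cyclooxygenases such as PTGS2 start the synthesis, PGE2 acts on the EP receptors, among them PTGER2 and PTGER4, and HPGD oxidises prostaglandins to products of little activity. In the leukotriene branch, ALOX5 works with its helper ALOX5AP, LTA4H makes leukotriene B4, and LTC4S makes the glutathione-bound leukotrienes. The leukotriene branch is best known from leukocytes, and HPGD from epithelia, where it is often reduced in tumours.

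Values are normalised counts, which are probe counts times 1 factor per line. Pairs of values are given with wild-type line 1 before line 7 and knockout line 1 before line 5. Total gene counts lay between 448610 and 571767. A background limit, the mean plus 2 SD of the 8 negative control probes, lay between 19.5 and 25.7 normalised counts. Of the 785 genes, 514 had a mean of 20 or more over the 4 lines and entered the fit. With limma, 42 of these passed a Benjamini-Hochberg adjusted p of 0.05, which is 8.17%, of which 10 were lower (1.95%) and 32 higher (6.23%) in the knockout. Of 16 leukocyte marker genes matched by exact symbol, 9 lay below the limit in all 4 lines, among them PTPRC (CD45) at 6.68 to 9.39. Of these 16, 2, CD14 and CD68, lay above it in all 4. Their summed level was 279 and 329 in the wild-type pair and 269 and 192 in the knockout pair. None of the 5 of these 16 that were tested passed the threshold with limma, and their unadjusted p-values were all above 0.05. The list markers TPSAB1 and FCGR3A have joint probes, TPSAB1/B2 and FCGR3A/B, which were left out of these counts and sums. Both were tested, with means of 37.3 and 35.6 and log2 differences of -0.87 and -0.53. Neither passed (limma adjusted p = 0.188 and 0.523), but TPSAB1/B2 had an unadjusted limma p of 0.0289. The part of this low leukocyte marker level in the results was not tested.

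HPGD was readily counted in both wild-type lines and was only somewhat above background in the knockout. It stood at 199 normalised counts in wild-type line 1 and 159 in wild-type line 7, against 36.7 in knockout line 1 and 32.3 in knockout line 5. Both knockout lines were low, and the groups did not overlap. The values rest on 191 and 186 counted molecules in the wild type and on 33 and 31 in the knockout. The exact 95% Poisson intervals, which cover counting error only, were 172 to 230 and 137 to 184 in the wild type, and 25.3 to 51.6 and 21.9 to 45.8 in the knockout. In the order of levels, the intervals of the lines within each group overlap, and a gap separates the lowest wild-type interval from the highest knockout interval.

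The wild-type mean of HPGD was 179 ± 28.4 and the knockout mean was 34.5 ± 3.15 normalised counts (SD, n = 2 each), a ratio of 5.20. Across the 4 ways to set a wild-type line against a knockout line, this ratio ran from 4.33 to 6.18. On the log2(value + 1) scale, which understates changes of low genes, the difference of knockout minus wild type was -2.34 ± 0.22 (SE). No other gene of the 514 had a lower difference, a rank that is part of why HPGD was chosen. In RNA from whole cultures, fewer cells with HPGD RNA and less HPGD RNA per cell cannot be told apart. The lines within a group were close: on the log2 scale, wild-type line 7 minus line 1 gave -0.32, and knockout line 5 minus line 1 gave -0.18.

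The size of the HPGD difference depends on how background is treated, since the knockout values lie near it. HPGD was 7.76 and 7.53 times the background limit in the wild type, but 1.88 and 1.49 times the limit in the knockout. After subtraction of each line's mean negative control level, the log2 difference was -2.69 ± 0.24 (SE), an alternative chosen after the data had been seen.

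**Figure D1:**
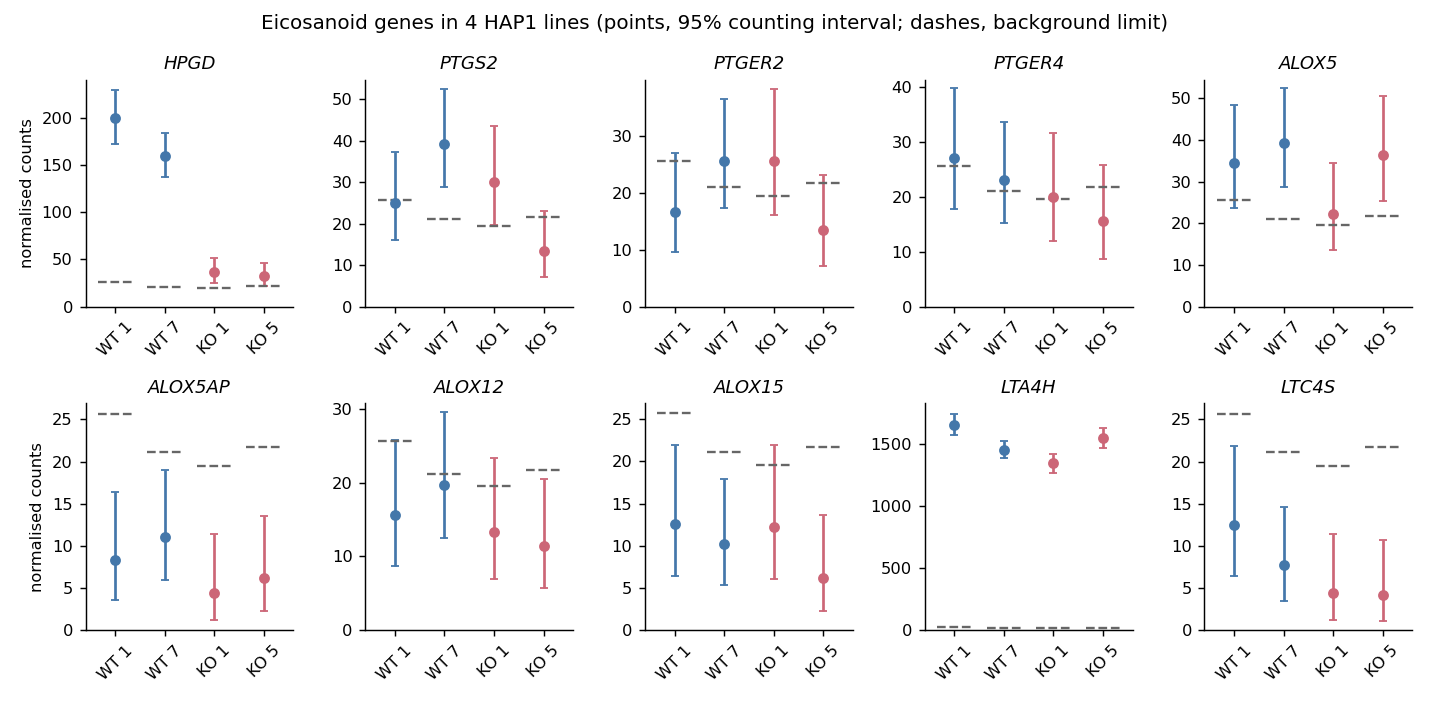
Normalised counts (y axes, linear and starting at 0) of the 10 genes in both wild-type lines (blue) and both MATR3 knockout lines (red). Points are single lines with the exact 95% Poisson interval, and dashes mark each line's background limit; the HPGD groups are far apart, LTA4H is high in all lines, and ALOX5AP, ALOX12, ALOX15 and LTC4S lie below the limit in every line.

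PTGS2 and the EP receptors PTGER2 and PTGER4 were counted near background. PTGS2, the inducible cyclooxygenase, stood at 25.04 and 39.4 normalised counts in the wild-type pair, and at 30.0 and 13.5 in the knockout pair. Knockout line 1 fell between the wild-type lines so the groups overlap, and wild-type line 1 and knockout line 5 were below their background limits. Its log2 difference of -0.61 ± 0.45 (SE) had a 95% interval from -1.61 to 0.39 and did not pass (limma adjusted p = 0.46). The value rests on which knockout line is used: without knockout line 1 the difference was -1.16 and passed (limma adjusted p = 0.0473), and without knockout line 5 it was -0.063 (limma adjusted p = 0.945).

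PTGER2, the EP2 receptor that raises cyclic AMP, was at 16.7 and 25.7 normalised counts in the wild-type pair, and at 25.6 and 13.5 in the knockout pair. Each group had 1 line above and 1 line below its background limit. The log2 difference was -0.14 ± 0.47 (SE; 95% interval -1.18 to 0.89; limma adjusted p = 0.884), and its sign changed with cyclic loess scaling, at 0.34, and without wild-type line 7, at 0.15, or knockout line 5, at 0.29.

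PTGER4, the EP4 receptor that also raises cyclic AMP, was at 27.1 and 23.1 normalised counts in the wild-type pair, and at 20.03 and 15.6 in the knockout pair. Both knockout values were below both wild-type values, and 3 of the 4 lines were just above the limit. The log2 difference was -0.48 ± 0.41 (SE; 95% interval -1.38 to 0.42) and did not pass (limma adjusted p = 0.506). Of all 514 tested genes, 30.7% had both knockout values below both wild-type values.

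LTA4H, the hydrolase that makes leukotriene B4, was the other clearly counted gene. It stood at 1656 and 1455 normalised counts in the wild-type pair, and at 1342 and 1543 in the knockout pair, or 64.5 to 71.1 times the background limit. Wild-type line 1 was highest, knockout line 1 was lowest, and knockout line 5 lay between the wild-type lines, so the groups overlap. The log2 difference was -0.11 ± 0.09 (SE), with a 95% interval from -0.31 to 0.10 (limma adjusted p = 0.506), so a change of the size of that of HPGD lies outside its interval.

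ALOX5, the lipoxygenase that starts leukotriene synthesis, was above the limit in all 4 lines. It was at 34.4 and 39.4 normalised counts in the wild-type pair, and at 22.3 and 36.4 in the knockout pair. Knockout line 1 was low and knockout line 5 lay between the wild-type lines. The log2 difference was -0.36 ± 0.35 (SE; 95% interval -1.13 to 0.42; limma adjusted p = 0.568). It was -0.70 without knockout line 5 and -0.015 without knockout line 1 (limma adjusted p = 0.33 and 0.976).

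The 4 remaining genes had means under 20, entered no test, and were below the background limit in every line. ALOX5AP, the protein that presents arachidonate to ALOX5, was at 8.35 and 11.1 normalised counts in the wild-type pair and at 4.45 and 6.24 in the knockout pair. LTC4S, the synthase of leukotriene C4, was at 12.5 and 7.70 in the wild type and at 4.45 and 4.16 in the knockout, in the same order of lines. The mean negative control level was 7.93 to 8.87, and the knockout values of both genes lay below it.

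ALOX12, a lipoxygenase best known from platelets, was at 15.7 and 19.7 normalised counts in the wild-type pair and at 13.4 and 11.5 in the knockout pair. ALOX15, a lipoxygenase of lipoxin synthesis, was at 12.5 and 10.3 in the wild type and at 12.2 and 6.24 in the knockout. Of these 4 genes, 3 had both knockout values below both wild-type values, all but ALOX15. The same held for 38.0% of the 271 genes below the filter, against 5.17% with both knockout values higher. When the limit was set without the brightest negative control probe, ALOX12 lay above it in both wild-type lines and in neither knockout line, and the other 3 stayed below it in every line.

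The lower knockout values of the weakly counted genes are shared by weakly counted genes in general. Among the 173 tested genes with a mean under 50, 144 had a log2 difference below 0 and the median was -0.43, while the median was 0.03 for the 341 genes at or above that level. The median value of those 173 genes was 28.2 and 32.5 normalised counts in the wild-type pair, and 25.6 and 18.7 in the knockout pair, so knockout line 5 was the lowest. Of the 173, 50 had a lower difference than PTGS2, 74 a lower one than PTGER4, 106 a lower one than ALOX5 and 130 a lower one than PTGER2. The part of this low-level shift in the values of the 4 genes was not tested. HPGD had a mean of 107 through its wild-type values, while its knockout values were at the level of this class.

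Of the 5 tested genes other than HPGD, 0 passed the threshold with limma, beside 8.17% of all tested genes, and 0 had an unadjusted p under 0.05. All 5 differences were below 0, as were 57.6% of all tested genes. Of those with a mean under 50, the class of all 5 but LTA4H, 83.2% were below 0. The 95% intervals given above all include 0, and that of LTA4H is the narrowest of the 5.

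**Figure D2:**
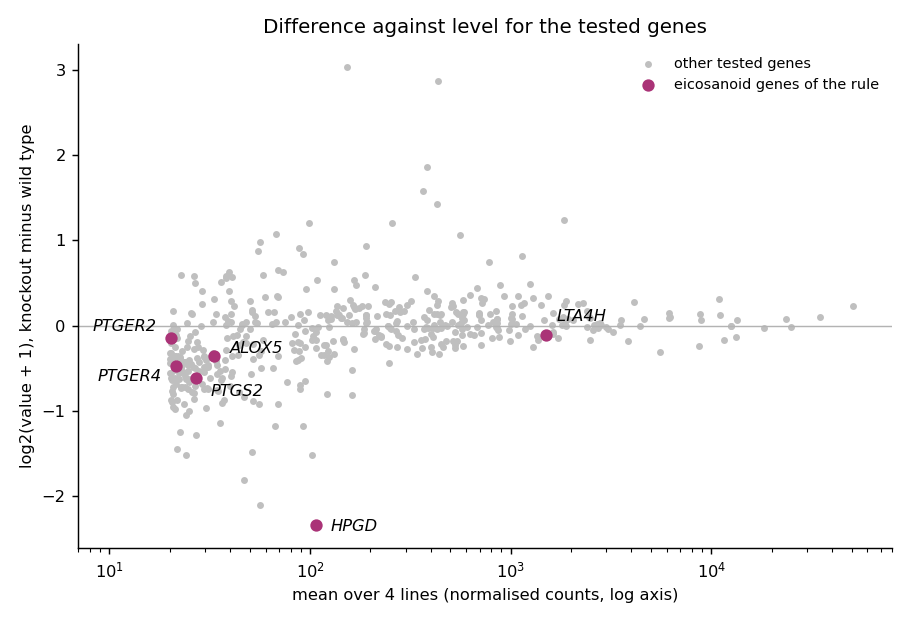
Difference of log2(value + 1), knockout minus wild type (y axis), against the mean over the 4 lines in normalised counts (x axis, log scale), for the 514 tested genes. HPGD has the lowest difference at -2.34, LTA4H lies near 0 among well-counted genes, and PTGS2, PTGER2, PTGER4 and ALOX5 lie in the cloud of weakly counted genes whose median is -0.43.

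Other genes of the pathway were read from 6 lists with 123 genes, of which 25 were in the table and 16 were tested. None of the 16 passed the threshold with limma in either direction, and 3 had an unadjusted p under 0.05, beside 102 of all 514 tested genes (19.8%). Their median log2 difference was -0.09, beside -0.04 over all tested genes. For the supply of arachidonate, the acyl-CoA synthetases ACSL1, ACSL3 and ACSL4 were tested, and all 3 were above the limit in every line. ACSL4, which prefers arachidonic acid, was at 414 and 375 normalised counts in the wild-type pair and at 320 and 390 in the knockout pair, with a log2 difference of -0.16 ± 0.13 (SE; limma adjusted p = 0.478).

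The thromboxane synthase TBXAS1 was the 1 other gene of prostanoid synthesis in the table, and it lay below the limit at 1.04 to 4.28 normalised counts. From the leukotriene and lipoxin list, the table held EPHX2, FPR1 and FPR2, and 0 of these 3 were tested. The list of cyclic AMP signalling genes was represented by ATF4, a transcription factor that also serves the stress response, at 13834 and 13781 normalised counts in the wild-type pair and 12304 and 12932 in the knockout pair. Its log2 difference was -0.13 ± 0.06 (SE; limma adjusted p = 0.216), and with cyclic loess it was -0.17 (limma adjusted p = 0.00884).

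Genes known to induce PTGS2 were the best covered list, with 17 of 22 in the table and 12 tested, of which 0 passed with limma. JUN, a component of AP-1, was at 103 and 127 normalised counts in the wild-type pair and at 85.7 and 61.4 in the knockout pair. Both knockout lines were below both wild-type lines, as for 30.7% of all tested genes. The log2 difference of -0.65 ± 0.22 (SE) missed the threshold (limma adjusted p = 0.119). Of the alternatives that kept all lines, JUN passed with cyclic loess (limma adjusted p = 0.0466) and with none of the others. Its log2 difference was -0.80 without wild-type line 1 and -0.89 without knockout line 1. NFKB2, a subunit precursor of NF-kB, pointed the other way, at 283 and 290 in the wild type and 358 and 342 in the knockout, with a log2 difference of 0.29 ± 0.11 (SE; limma adjusted p = 0.181). The lipopolysaccharide receptor TLR4 was at 19.8 and 34.2 normalised counts in the wild-type pair and at 35.6 and 10.4 in the knockout pair. Knockout line 1 was highest and knockout line 5 lowest, so the groups overlap, and 2 lines were above the background limit. Its log2 difference was -0.41 ± 0.55 (SE; limma adjusted p = 0.666), and it was -1.25 without knockout line 1, the high one.

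**Figure D3:**
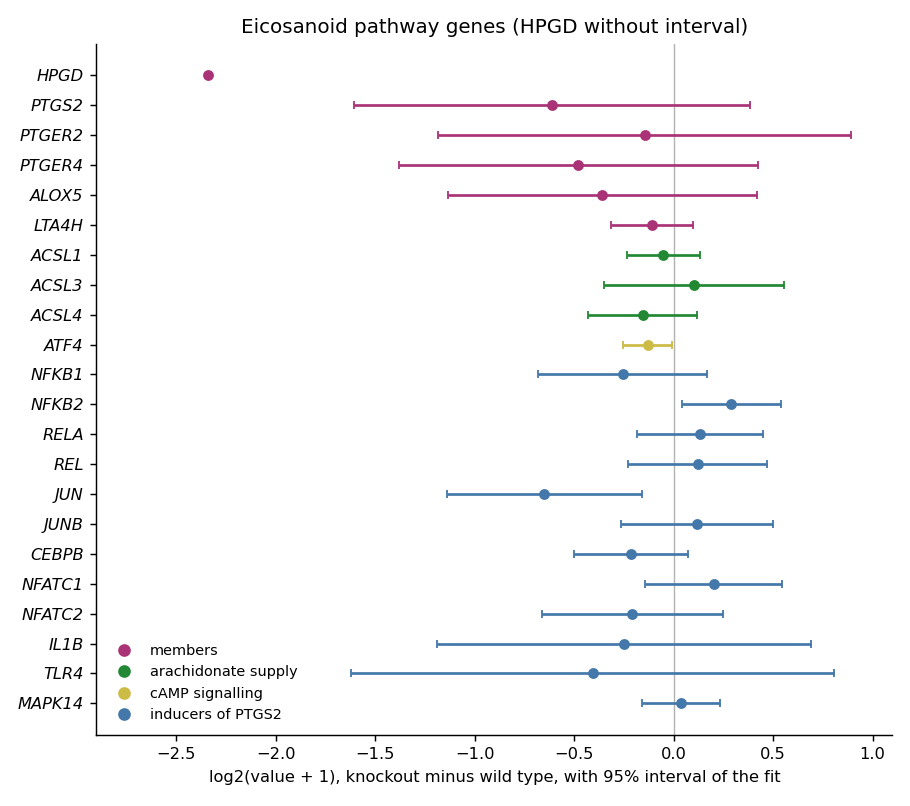
Difference of log2(value + 1), knockout minus wild type (x axis), for 6 genes of the rule (purple) and the 16 tested genes of the pathway lists (green, arachidonate supply; yellow, cyclic AMP signalling; blue, inducers of PTGS2). Bars are the 95% interval of the limma fit, left out for HPGD, which was chosen from this comparison; HPGD lies at -2.34 and all others lie between -0.65 and 0.29.

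The genes whose pattern over the 4 lines was nearest to that of HPGD were found by the Euclidean distance between log2(value + 1) values after subtraction of each gene's mean, which is a description of 4 points. GATA3, a lineage transcription factor, was nearest at a distance of 0.84, followed by the hyaluronan receptor CD44 at 0.86, IRAK3, an inhibitor of Toll-like receptor signalling, at 1.17, the cytokine IL17D at 1.19 and MDFIC, which encodes a regulator of transcription factors, at 1.20. The sixth gene lay at 1.20 as well, and the median over all tested genes was 2.32. All 5 had both knockout values below both wild-type values, which the measure favours. Their log2 differences, between -1.52 and -1.17, were smaller in size than that of HPGD. IRAK3, the least counted of the 5, was at 29.2 and 35.1 normalised counts in the wild-type pair and at 13.4 and 12.5 in the knockout pair, where it was below the background limit.

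**Figure D4:**
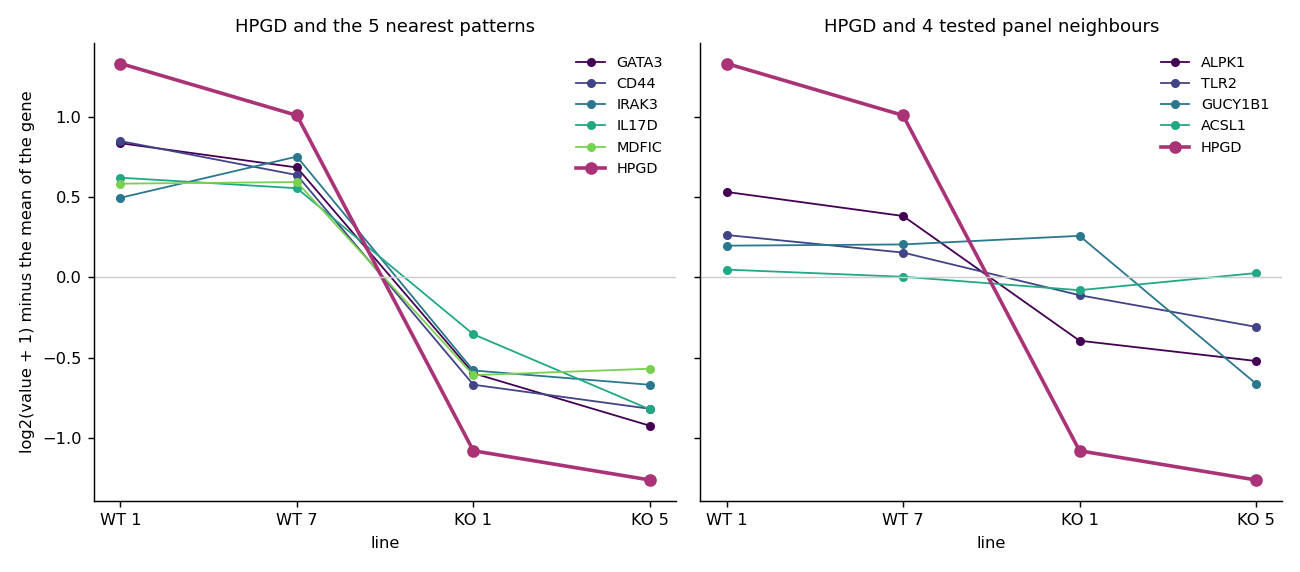
Values of log2(value + 1) minus the mean of each gene (y axis) in the 4 lines (x axis; lines join the points of a gene and imply no order), for HPGD with the 5 genes of the nearest pattern (left) and with 4 tested panel genes near it on its chromosome (right). The nearest patterns share the drop from wild type to knockout at a smaller size, and the neighbours spread from ALPK1, lower in both knockout lines, to ACSL1, whose groups overlap.

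HPGD lies on chromosome 4, and the 4 tested panel genes described here as its neighbours had log2 differences between -0.91 and -0.05. The order was taken from RefSeq for GRCh38.p14, in which 765 of the 785 symbols were found, and 15 other tested genes lie on that chromosome. On the side with lower coordinates, GUCY1B1, a subunit of soluble guanylate cyclase, was at 97.0 and 97.5 normalised counts in the wild-type pair, 101 in knockout line 1 and 53.1 in knockout line 5. Its log2 difference was -0.40 ± 0.28 (SE; limma adjusted p = 0.448). Without knockout line 5 it was 0.057 (limma adjusted p = 0.931), and without knockout line 1 it was -0.86 and passed (limma adjusted p = 0.0391). TLR2, a receptor for bacterial lipoproteins, had a log2 difference of -0.42 ± 0.32 (SE; limma adjusted p = 0.46).

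ALPK1, the kinase that senses bacterial heptose metabolites, was the 1 called gene among these 15, beside 8.17% of all tested genes. It was at 96.0 and 86.4 normalised counts in the wild-type pair and at 50.1 and 45.8 in the knockout pair, a log2 difference of -0.91 ± 0.22 (SE; limma adjusted p = 0.0298). Its call was lost in 3 of the 4 fits that leave out a line, with a limma adjusted p of 0.123 without wild-type line 1, 0.0502 without wild-type line 7 and 0.0864 without knockout line 5, while its log2 difference in these fits stayed between -0.99 and -0.84. On the other side, ACSL1 had a log2 difference of -0.05 ± 0.08 (SE; limma adjusted p = 0.72). Of the 15 genes, 12 had differences below 0, with a median of -0.26, beside 296 of all 514 tested genes with a median of -0.04. In the 11 of them whose mean reached 50, the median was -0.21, beside 0.03 for all genes at that level.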

How the data were processed

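The deposited values are a normalised NanoString signal, made by the authors from probe counts of 4 lines; per the submitters' processing notes R 4.1.1 was used, and the normalisation method is not given in the sources used here. The values themselves show whole counts times 1 factor per line, within 0.006, above the lowest steps; in wild-type line 7, 4 values stood at a floor of 1.00. Control probes were deposited as unscaled counts. Dividing by the factor gave counts for totals and Poisson intervals.

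Knockout and wild type were compared with limma 3.58.1 in R 4.3.3 (lmFit, eBayes with trend, two-sided) on log2(value + 1), over 514 genes with a mean of 20 or more, with Benjamini-Hochberg adjustment over all of them. The fit was also run on simulated counts, which held no general shift of weakly counted genes and so do not bear on that shift. The members, lists and tests were chosen with earlier results of these data known. Named genes are the 10 genes of the rule, list genes past the threshold, the 5 nearest patterns, up to 3 tested chromosome neighbours on each side, of which 1 is not reported here, and PSMB8. Other list genes, such as JUN, NFKB2, ATF4 and TLR4, were named after their values were seen. Of the lists, those of platelet, erythroid, fibroblast and other prostanoid receptor genes had 0 genes in the table. The epithelial marker CDH1 was at 35.5 to 41.1 normalised counts, and the endothelial markers PECAM1 and VWF were below the background limit in every line. Alternatives changed scaling, filter, pseudocount, background, variance model and single lines.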

Additional observations from a re-analysis of the deposited data

How the results depend on the processing

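The log2 difference of HPGD stayed below 0 under all 15 alternatives, between -2.69, with background subtracted, and -2.08, with a pseudocount of 10. Without single lines it ranged from -2.50 to -2.18. The number of genes passing over the whole table was 42, and it became 69 with cyclic loess (29 lower) and 4 under limma without the trend (2 lower). Without single lines it ranged from 29 to 77, with 9 to 47 lower, and 77 with 47 lower came without knockout line 1. Of the pathway list genes, 2 passed with cyclic loess (ATF4 and JUN), and without single lines 0 to 2 passed. Of the 5 tested genes of the rule other than HPGD, 0 to 1 passed without single lines, the 1 being PTGS2 without knockout line 1. The split of 32 higher and 10 lower became 22 and 10 when lines were scaled on positive controls, and 40 and 29 under cyclic loess. It became 54 and 8 when lines were rescaled on a list of reference genes from which TBP was dropped. TBP was itself called higher in the knockout, with a log2 difference of 0.75 ± 0.09 (SE; limma adjusted p = 0.000274).

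Signs were followed for the tested genes of the rule, the chromosome neighbours described above and PSMB8. The other list genes, such as TLR4, were not followed. Among those followed, signs changed for PTGER2 with cyclic loess (0.34) and for ACSL1 when TBP was dropped (0.030). Without single lines they changed for PTGER2 (-0.58 to 0.29), ACSL1 (-0.11 to 0.00066) and GUCY1B1 (-0.86 to 0.057). The cause was not tested. ALPK1 did not pass under limma without the trend (limma adjusted p = 0.0801). Where 1 line was left out, the fit takes the spread of the other genotype for the lone line that remains. Of the 5 genes nearest in pattern to HPGD, 4 were shared with a filter at a mean of 50 and 1, CD44, with a Pearson correlation as the measure. The background limit rests on 1 negative control probe, NEG_A, which had 17 to 26 counts where the other 7 had at most 15. Without it, a choice made after seeing the data, 6 of the 10 genes in place of 3 lay above the limit in all lines, and ALOX5AP, ALOX15 and LTC4S still lay below it in all. The edgeR and DESeq2 alternatives were not run, because the values are not raw counts and whole counts were not recovered for the lowest values of wild-type line 7. No paired analysis was possible because only number 1 occurs in both groups.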

Other observations

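The wild-type values of HPGD coincide with those of PSMB8, an immunoproteasome subunit. Both genes had 191 counts in wild-type line 1 and 186 in wild-type line 7. In the knockout lines PSMB8 had 381 and 646 counts where HPGD had 33 and 31, so the rows are not copies of each other. Among the 341 genes whose mean reached 50, this is the 1 pair with equal values in both wild-type lines, and 3 pairs have equal values in both knockout lines.

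Some of the weakly counted genes of the rule also had unlike values in the lines of 1 genotype, with overlapping counting intervals. PTGS2 was 0.63 higher in wild-type line 7 than in wild-type line 1 on the log2 scale, and the difference of knockout line 5 minus knockout line 1 was -1.10. ALOX5 went the other way in the knockout, 0.69 higher in line 5 than in line 1.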
